A study of Mus musculus with 78 samples.

Results

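Kidneys of male C57BL/6J mice that had received 5 daily doses of tetrachloroethylene (PERC) were compared between a high-fat and a low-fat diet. The libraries were chosen by their labels alone, as those of the repeated regimen with the treatment PERC and the diet group HFD or LFD. They are 17 of the 78 samples of the series, 8 from HFD mice and 9 from LFD mice. C57BL/6J is an inbred laboratory strain that gains fat in the liver on a fat-rich diet, and PERC is a chlorinated solvent of dry cleaning and degreasing. Per the series description, the HFD held 31% fat and the LFD 4% fat, feeding lasted 8 weeks, and PERC was given at 300 mg/kg per day with kidneys taken 4 h after the fifth dose. All 17 mice carried PERC, so the comparison is of diets under the solvent. The 8 HFD and 7 LFD libraries of the vehicle arm, which had 5 doses of the carrier and share no library with the PERC arm, give the diet difference without it. The series title poses fatty liver as a factor in the kidney effects of PERC. The labels do not state that each library is a separate animal, so the p-values measure the spread between libraries.

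PERC is oxidised by cytochrome P450 enzymes to trichloroacetate, which activates the nuclear receptor PPARα, and PPARα turns on genes that carry, burn and store fatty acids. It is also conjugated to glutathione, and the conjugate is trimmed to a cysteine form that is N-acetylated and excreted or cleaved by a β-lyase of the proximal tubule into reactive products. Fatty acids are the main fuel of the proximal tubule, and dietary fatty acids are themselves PPARα ligands.

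The 8 HFD libraries held 13048470 to 21146962 counts in genes, and the 9 LFD libraries 8556278 to 28508827. Of 14 markers of the S1 and S2 proximal tubule, a defining kidney cell type, every one was detected, with sums of 11060 to 16290 CPM (counts scaled to a library of 1000000) in HFD and 13370 to 18910 CPM in LFD libraries. The first principal component of the 17 libraries (25.3% of variance) had an r2 of 0.474 with sequencing lane and 0.00714 with diet. For the second (16.4%) these were 0.547 and 0.167, and for the third (11.2%) 0.146 and 0.680. Lane has 5 levels, which alone raises its r2 above that of diet, and neither association was tested. Both diets were present in each of the 5 lanes. LFD PERC replicate 4, the deepest library, stood apart. Its Cyp4a14 level was 121 CPM, against 892 to 7369 CPM in the other 8 LFD PERC libraries and 56.5 to 182 CPM in LFD vehicle libraries. Its Banp level was 17.4 CPM, against 4.57 to 7.63 CPM in those 8 and 14.1 to 21.1 CPM in LFD vehicle libraries. Banp was named because the test of the difference between arms called it with this library left out, so this value is not independent evidence. The labels put 9 libraries in the LFD PERC group and 7 in the LFD vehicle group, where the description gives 8 for each. The library was kept under its label, and results that rest on it are given also without it. HFD PERC replicate 6 also differed from its group, with Nqo1 at 200.9 CPM against at most 83.4 CPM in the other HFD PERC libraries and Lcn2 at 35.2 against at most 7.23 CPM.

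Of 14614 genes tested, 891 differed between HFD and LFD after PERC at an adjusted p under 0.05 (6.1%). They split evenly, 442 higher in HFD (3.02%) and 449 lower (3.07%). Without LFD PERC replicate 4 the counts were 488 higher (3.34%) and 487 lower (3.34%). Calls came from the quasi-likelihood F test of edgeR with Benjamini-Hochberg adjustment, fitted over all 47 libraries of the repeated regimen so that they share 1 estimate of spread. PERC libraries varied more than vehicle libraries, with a biological coefficient of variation of 18.8% over these 17 and 12.4% over the 15 vehicle libraries. Fitted alone, with fewer libraries and fewer genes kept, the 17 PERC libraries gave fewer calls: 272 of 14008 genes (1.94%), 124 higher (0.885%) and the rest lower (1.06%), all of them among the 891. The count in that stricter fit is given below as the count in the PERC libraries alone. Each list count below is to be read beside the share over all genes in the same fit. The HFD libraries lay wholly above the LFD libraries for 33 genes (0.226% of those tested) and wholly below for 36 (0.246%). Values were also taken within lanes, each with 1 or 2 libraries per diet. Of the 46 genes described below that were named by rule and called, 45 had the same direction in all 5 lanes (Ucp1 in 4). These genes were called on the same libraries, so the agreement was largely built in and is not independent evidence.

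Much of the diet difference was also present without PERC. With vehicle, 564 genes were higher in HFD (3.86%) and 406 lower (2.78%). Of the 891 genes called after PERC, 393 were called in the same direction with vehicle and 1 in the opposite direction. The shared calls are 44.1% of the PERC calls and 40.5% of the vehicle calls. The sign was the same for 849 of the 891 (95.3%), against 67.4% of all genes tested. The agreement was lower without LFD PERC replicate 4. In that fit 384 of 975 PERC calls (39.4%) were shared in direction with vehicle. The sign was the same for 91.6% of the 975, against 64.6% of all genes. The test of whether the diet difference itself changed with treatment called 2 genes (0.0137%), Sntg2 and Angptl4. An unadjusted p under 0.05 was found for 805 genes. Without LFD PERC replicate 4 these counts were 4 and 1076. For genes other than Sntg2 and Angptl4, a call in the PERC arm alone does not show that PERC altered the diet difference.

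**Figure D1:**
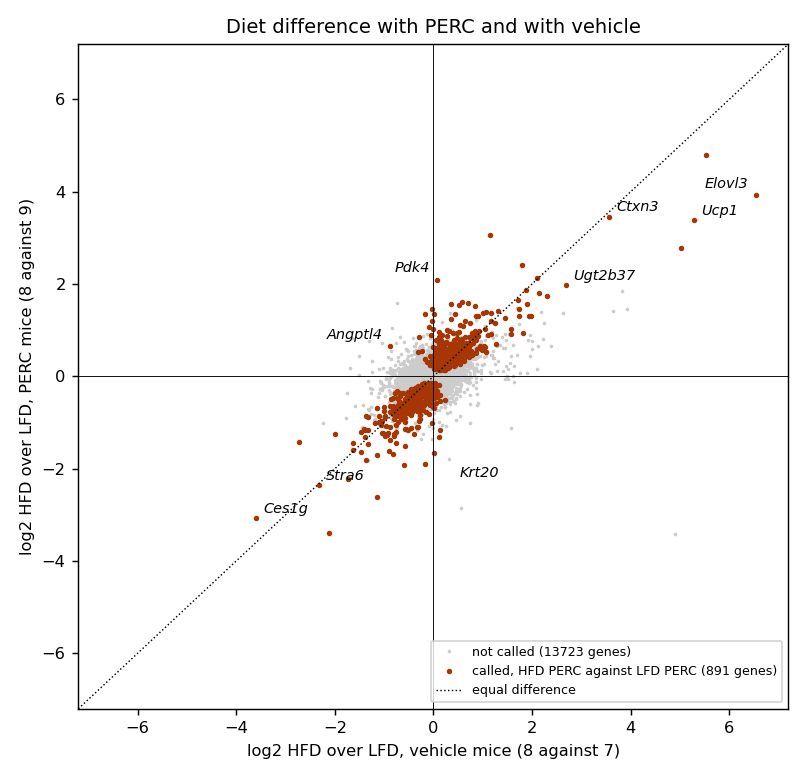
Log2 HFD over LFD level of each of 14614 genes in PERC mice (vertical) against vehicle mice (horizontal). The 891 genes called after PERC are in red; 849 of them lie on the same side of 0 in both arms, and Pdk4 and Angptl4 lie above the line of equal difference.

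Several of the genes with the smallest p after PERC differed between the diets in the vehicle arm as well. Pla2g5, a secreted phospholipase A2, measured 3.06 to 5.38 CPM (median 4.26) in HFD and 7.62 to 14.6 CPM (median 10.6) in LFD PERC libraries. The groups did not overlap, and the level was 2.60-fold lower in HFD (log2 difference -1.38, SE 0.12, adjusted p = 4.77e-11; -0.88 with vehicle). Egln3, the oxygen-sensing prolyl hydroxylase PHD3, measured 40.3 to 52 CPM (median 44.3) in HFD and 16.3 to 27.4 CPM (median 24.7) in LFD. All HFD libraries were above all LFD libraries, by 0.89 (SE 0.080, adjusted p = 1.17e-10) after PERC and by 1.1 with vehicle. Ctxn3, a small membrane protein of the cortexin family, measured 3.22 to 8.82 CPM (median 5.07) in HFD and 0.0709 to 1.59 CPM (median 0.515) in LFD. That 11-fold difference (log2 3.46, SE 0.36, adjusted p = 8.98e-09) was 3.56 on the log2 scale with vehicle. Stra6, the receptor that takes up retinol from its carrier protein, measured 0.603 to 2.79 CPM (median 0.849) in HFD and 3.60 to 10.5 CPM (median 5.72) in LFD. It was 5.12-fold lower in HFD, again without overlap (adjusted p = 1.86e-08), and -2.32 with vehicle on the log2 scale. Its relative Stra6l differed with vehicle (-0.90, adjusted p = 1.9e-05) and not after PERC, where the ranges were 16 to 25.2 CPM in HFD and 15.8 to 28.1 CPM in LFD (log2 -0.058, SE 0.13, adjusted p = 0.902). The difference between arms was not called for Stra6l.

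Every called gene of the mitochondrial, peroxisomal and PPARα lists of fatty acid use was higher in HFD kidneys after PERC. Of 27 tested PPARα targets, 10 were higher in HFD and 0 lower, with a median log2 difference of 0.48 against -0.0042 over all genes. Of 25 peroxisomal β-oxidation genes, 11 were higher and 0 lower (median 0.29), and of 23 genes of mitochondrial fatty acid oxidation and the carnitine shuttle, 10 were higher and 0 lower (median 0.29). In the PERC libraries alone, 4, 4 and 6 of these were called, again with 0 lower. With vehicle the counts were 2 higher and 2 lower of the PPARα targets, 8 higher of the peroxisomal genes and 7 higher of the mitochondrial genes. Without LFD PERC replicate 4 they were 9, 11 and 9 higher after PERC, and 0 lower.

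Pdk4 (GRCm38 chr6:5483351-5496309, minus strand), the kinase that shuts pyruvate dehydrogenase and so spares glucose, measured 318 to 1261 CPM (median 558) in HFD and 20.04 to 258 CPM (median 184) in LFD PERC libraries. No HFD library came down to the highest LFD library, and the lowest LFD value was that of replicate 4. The level was 4.28-fold higher in HFD (log2 2.10, SE 0.37, adjusted p = 0.000142), and 1.95 on the log2 scale without replicate 4 (adjusted p = 0.00017). In vehicle mice the medians were 47.4 CPM in HFD and 40.02 CPM in LFD, with a log2 difference of 0.071 (SE 0.39, adjusted p = 0.938). The difference between the arms, 2.03 (SE 0.53), had an unadjusted p of 0.000422 and an adjusted p of 0.325. Ucp2, an uncoupling protein family member of the inner mitochondrial membrane, measured 144.6 to 404 CPM (median 201) in HFD and 65.8 to 139.3 CPM (median 98.5) in LFD. These ranges did not overlap either (log2 1.19, SE 0.18, adjusted p = 1.26e-05), while the vehicle difference was -0.030 (adjusted p = 0.949). Slc16a1, the monocarboxylate transporter MCT1 that moves lactate and ketone bodies, measured 65 to 229.7 CPM (median 110.4) in HFD and 41.9 to 60.8 CPM (median 48.1) in LFD. Every HFD library exceeded every LFD library (log2 1.24, SE 0.18, adjusted p = 5.67e-06), and the vehicle difference was 0.36 (adjusted p = 0.279). For Ucp2 and Slc16a1 the difference between arms had adjusted p of 0.111 and 0.481.

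The enzymes of β-oxidation differed by less and more evenly between libraries. Acadvl, the very-long-chain acyl-CoA dehydrogenase, measured 463 to 613 CPM (median 535) in HFD and 328 to 449 CPM (median 383) in LFD, without overlap. Its log2 difference of 0.47 (SE 0.061) had the smallest adjusted p of the mitochondrial list, 6.84e-07, and 0.26 was found with vehicle (adjusted p = 0.00875). Cpt2, which rebuilds acyl-CoA inside the mitochondrion, measured 341 to 523 CPM in HFD and 223 to 327 CPM in LFD (log2 0.54, adjusted p = 5.37e-06). Decr1, which reduces the double bonds of unsaturated fatty acids, measured 539 to 752 CPM in HFD and 270 to 499 CPM in LFD (log2 0.64, adjusted p = 1.06e-05). For both the groups were again apart. Etfdh, which passes electrons from these dehydrogenases to the respiratory chain, was higher by 0.36 (adjusted p = 0.000686). Among peroxisomal genes, Crot, which hands shortened acyl groups to carnitine, measured 881 to 1181 CPM (median 1032) in HFD and 479 to 874 CPM (median 602) in LFD. The lowest HFD library stood just above the highest LFD library (log2 0.70, SE 0.11, adjusted p = 1.17e-05). Abcd3, a peroxisomal fatty acyl transporter, was higher by 0.42 (adjusted p = 0.000408). The gene models of Acadvl and Ucp2 overlap neighbours on the opposite strand and that of Crot overlaps one on its own strand, so their counts are uncertain to that extent.

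**Figure D2:**
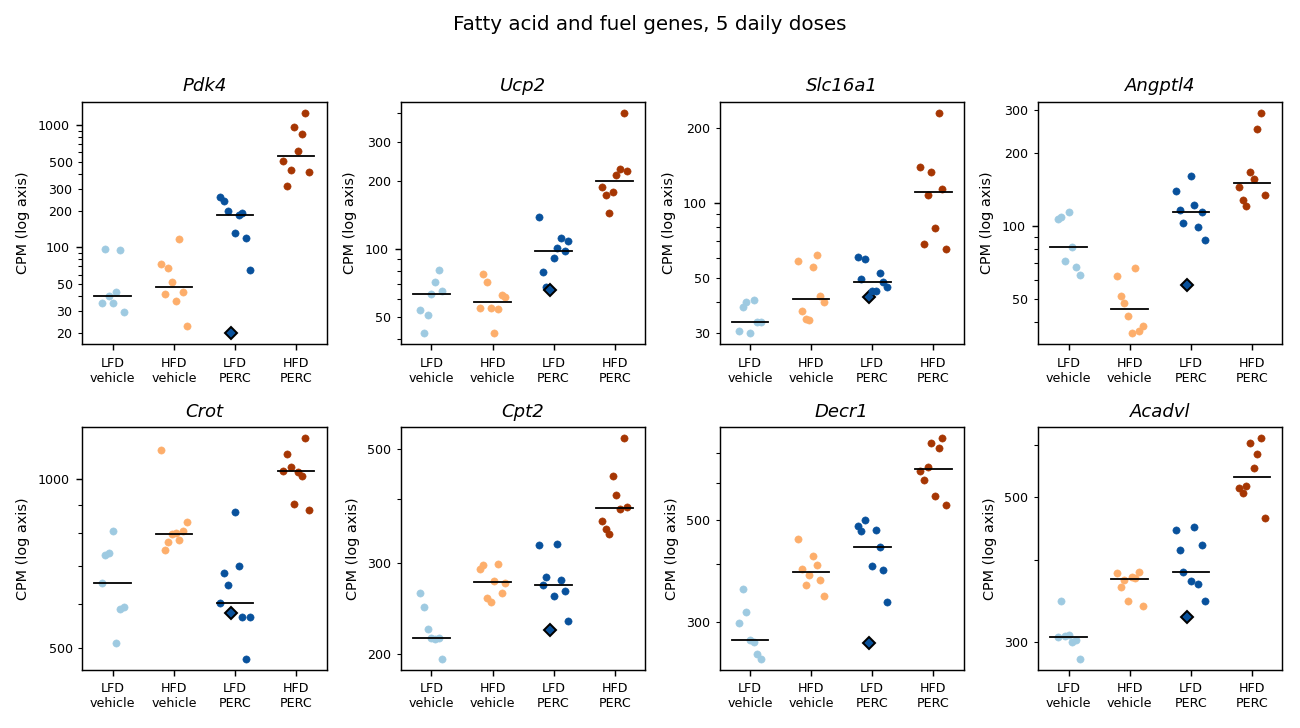
CPM (log axis) of 8 genes of fatty acid use in LFD vehicle, HFD vehicle, LFD PERC and HFD PERC libraries, with 1 point per library, a line at each median and a diamond for LFD PERC replicate 4. HFD PERC libraries lie above all LFD PERC libraries for Pdk4, Ucp2, Slc16a1, Crot, Cpt2, Decr1 and Acadvl, and overlap them for Angptl4.

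Fewer genes of lipid uptake and synthesis passed the test. Of 26 genes of fatty acid uptake and binding, 3 were higher and 0 lower (5 and 0 when LFD PERC replicate 2 was left out, 2 and 1 when replicate 8 was), led by the fatty acid transporter Cd36. It measured 690 to 935 CPM (median 783) in HFD and 298 to 703 CPM (median 449) in LFD, with 1 LFD library inside the HFD range, and differed by 0.85 (adjusted p = 2.92e-05) after PERC and by 0.72 with vehicle. Of 25 genes of fatty acid synthesis and desaturation, 0 were higher and 2 lower, a count that single libraries moved. It was 3 higher and 2 lower when LFD replicate 2 was left out, 2 and 2 for HFD replicate 6, 1 and 2 for HFD replicate 1 or 2 or LFD replicate 5, 1 and 1 for LFD replicate 4, 1 and 0 for HFD replicate 7, and 0 and 1 for LFD replicate 7. Cholesterol synthesis and uptake genes gave small counts that moved with single libraries, 2 higher and 2 lower of 26, and 1 to 4 higher with 1 library left out. Ebp, a sterol isomerase of that route, measured 73.2 to 139.6 CPM in HFD and 58.7 to 91 CPM in LFD (log2 0.57, adjusted p = 1.07e-05). Of 8 ketone body genes, 3 were higher and 1 lower. Slc16a7, a second monocarboxylate transporter (MCT2), went the other way from Slc16a1, at -0.53 (adjusted p = 0.000542).

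Most genes that mark exposure to PERC or tubular injury overlapped between the diets and were not called. Cyp4a14, a fatty acid ω-hydroxylase that PPARα strongly induces in mouse, measured 3232 to 9957 CPM (median 5845) in HFD and 121 to 7369 CPM (median 3489) in LFD. The ranges overlapped broadly, with a log2 difference of 0.87 (SE 0.45, adjusted p = 0.302), or 0.70 without replicate 4 (adjusted p = 0.347). Its near relative Cyp4a31 was higher by 0.79 (SE 0.15, adjusted p = 0.000532), although reads can be split among the near-identical Cyp4a genes. Gc, the vitamin D-binding protein, measured 202 to 1184 CPM in HFD, 55.3 to 1401 CPM in LFD and 24.1 to 80.1 CPM over both vehicle groups, and did not differ by diet beyond its spread (log2 -0.45, SE 0.31, adjusted p = 0.492). Havcr1, the tubular injury marker KIM-1, measured 6.56 to 106 CPM (median 12.9) in HFD and 1.82 to 199 CPM (median 33.3) in LFD. The highest LFD library was above every HFD library and the lowest, replicate 4, was below. The log2 difference was -1.35 (SE 0.53, adjusted p = 0.135), and without LFD replicate 4 it was -1.52 with an adjusted p of 0.0477. The highest HFD value came from replicate 1, and without that library the difference was -2.24 (adjusted p = 0.00389). Within lanes Havcr1 was lower in HFD in 3 of 5, with log2 differences from -3.70 (lane 7) to 0.57 (lane 5). Vehicle libraries ran from 1.21 to 3.95 CPM.

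Krt20, a keratin of injured tubules, also had its highest values in LFD libraries. It measured 0.151 to 3.55 CPM (median 0.511) in HFD and 0.0702 to 9.35 CPM (median 1.68) in LFD. Its log2 difference was -1.80 (SE 0.59, adjusted p = 0.0571), -1.98 without LFD replicate 4 (adjusted p = 0.0176) and -2.37 without HFD replicate 6 (adjusted p = 0.0118). It also passed without LFD replicate 2, 3, 5, 6 or 9, with adjusted p of 0.032 to 0.0492. Neither gene was called in the PERC libraries alone, with adjusted p of 0.459 for Havcr1 and 0.276 for Krt20. The injury marker Lcn2 pointed the other way without being called, at 2.19 to 35.2 CPM in HFD and 1.23 to 9.66 CPM in LFD (log2 1.19, adjusted p = 0.0869; 0.24 and adjusted p = 0.785 without HFD replicate 6; 1.56 and adjusted p = 0.0177 without LFD replicate 1). Over the whole list of tubular injury and repair, 2 of 29 genes were higher and 2 lower. With LFD replicate 4 left out 2 were higher and 4 lower, with HFD replicate 7 left out 0 and 1, and with LFD replicate 1 left out 3 and 1. Leaving out HFD replicate 3, 5 or 8 or LFD replicate 7 gave 2 higher and 0 lower, and leaving out LFD replicate 3 or 8 gave 2 and 1. Of 27 p53 targets 0 were called in either direction (0 higher and 3 lower without LFD replicate 4, 0 and 1 without HFD replicate 1, 6 or 7), and of 39 cell cycle genes 1 was higher and 0 lower (1 and 1 without LFD replicate 2 or HFD replicate 6). Banp, a DNA-binding nuclear protein, was called only without replicate 4 (0.64, adjusted p = 0.0038; 0.34 and adjusted p = 0.336 with it), and with vehicle its difference had the opposite sign (-0.71, adjusted p = 0.0139). Slc22a7, an organic anion transporter, measured 1.141 to 34.6 CPM in HFD and 2.36 to 148.8 CPM in LFD, and its log2 difference moved from -0.95 to 0.068 on leaving out replicate 4, uncalled in both.

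**Figure D3:**
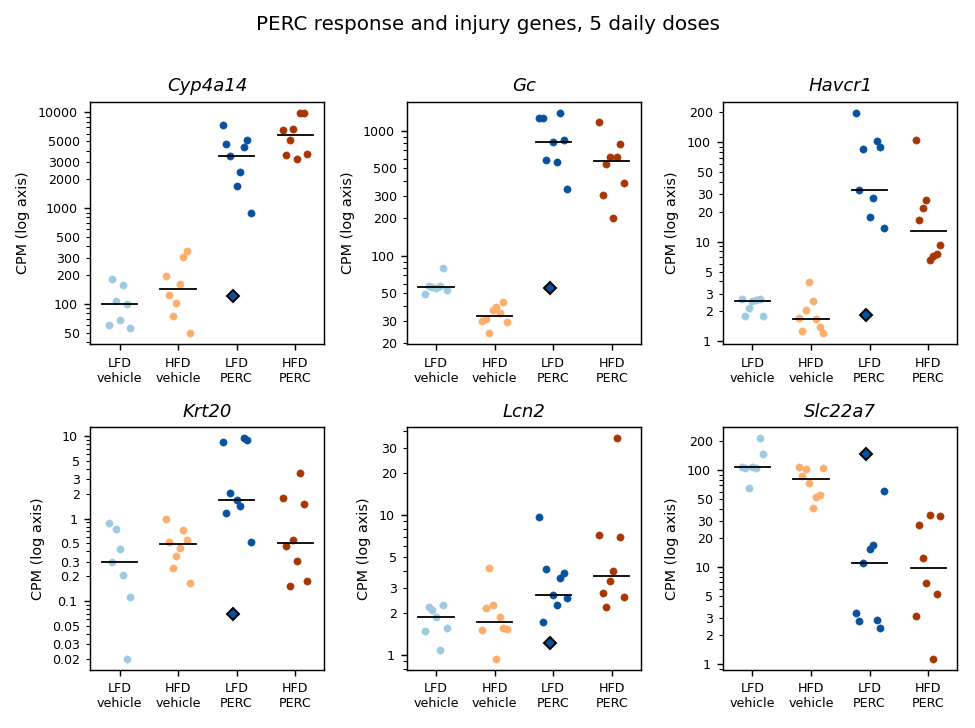
CPM (log axis) of 6 genes that differ between PERC and vehicle libraries or mark tubular injury, by group, with 1 point per library, a line at each median and a diamond for LFD PERC replicate 4; 0 is drawn at 0.02 CPM. The HFD PERC and LFD PERC ranges overlap for all 6, and replicate 4 lies within the LFD vehicle range for Cyp4a14, Gc, Havcr1, Krt20, Lcn2 and Slc22a7.

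Called genes of antioxidant defence and of glutathione conjugation were mostly lower in HFD kidneys. Of 35 tested targets of NRF2, the transcription factor of the oxidant response, 0 were higher and 10 lower (median -0.18), and of 31 genes that conjugate glutathione or form mercapturates, 2 were higher and 9 lower (median -0.11). The lists share members. In the PERC libraries alone 2 and 3 of them were lower, and with vehicle 4 and 6. Leaving out HFD PERC replicate 6 gave 1 higher and 14 lower NRF2 targets, and leaving out LFD PERC replicate 6 gave 1 and 10. Gsta4, a glutathione transferase for lipid aldehydes, measured 21.2 to 38 CPM (median 28) in HFD and 28.4 to 78 CPM (median 52.7) in LFD. The overlap was slight and the lowest LFD library was replicate 4. The difference was -0.89 (SE 0.14, adjusted p = 1.58e-05) after PERC and -0.59 (adjusted p = 0.006) with vehicle. Abcc4, an export pump for conjugates, measured 67.9 to 147.4 CPM (median 89.8) in HFD and 101 to 317 CPM (median 159) in LFD (log2 -0.90, SE 0.17, adjusted p = 0.000462; adjusted p = 0.0555 in the PERC libraries alone). Nqo1, a quinone reductase and classical NRF2 target, measured 51.6 to 200.9 CPM (median 63.9) in HFD and 75.8 to 195 CPM (median 126.7) in LFD. The highest of all was HFD replicate 6, and of the other 7 HFD libraries 6 lay below every LFD library. The difference of -0.68 (SE 0.19, adjusted p = 0.0258) was -1.02 without replicate 6 (adjusted p = 8.68e-06), and it was not called in the PERC libraries alone (adjusted p = 0.252). Leaving out LFD replicate 1, 3 or 8, or HFD replicate 2, 3, 4, 5 or 8, also ended the call, with adjusted p of 0.0518 to 0.067. Gsta1 measured 0.124 to 3.49 CPM (median 0.800) in HFD and 0.0351 to 17.1 CPM (median 3.92) in LFD (log2 -2.23, SE 0.56, adjusted p = 0.00834; adjusted p = 0.14 in the PERC libraries alone). Near-identical copies of this gene make its count uncertain. Kyat3, an enzyme with cysteine conjugate β-lyase activity, was lower in HFD (log2 -0.38, SE 0.074, adjusted p = 0.000509), as was Gstt3, a theta-class transferase (log2 -0.32, SE 0.064, adjusted p = 0.000715).

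Other enzymes and transporters that handle foreign compounds differed in both directions. Of 30 cytochrome P450 and flavin monooxygenase genes 4 were higher and 2 lower. The counts were 10 and 3 without HFD replicate 6, 7 and 2 without LFD replicate 5, 6 and 4 without LFD replicate 4, and 3 and 1 without HFD replicate 2 or LFD replicate 8. Cyp2e1, which oxidises many small solvents, was higher by 0.55 (adjusted p = 0.00203) at 1880 to 3291 CPM in HFD and 1352 to 2755 CPM in LFD. Cyp2c44, an arachidonic acid epoxygenase, was lower (log2 -0.73, adjusted p = 2.36e-05) at 27.3 to 54.8 CPM in HFD and 50.04 to 79.95 CPM in LFD. Of 25 glucuronosyltransferase, carboxylesterase and sulfotransferase genes, 3 were higher and 3 lower. These became 7 and 6 without HFD replicate 6, 5 and 6 without LFD replicate 4, and 3 and 5 without LFD replicate 8. Sult1c2, a sulfotransferase, measured 51.1 to 68.7 CPM (median 58.9) in HFD and 77.4 to 131 CPM (median 95.1) in LFD. The groups were apart (-0.72, SE 0.080, adjusted p = 1.86e-08; -0.66 with vehicle). Ugt2b37, a glucuronosyltransferase, measured 49.4 to 236 CPM (median 162) in HFD and 14 to 74.4 CPM (median 40.4) in LFD (log2 1.97, SE 0.29, adjusted p = 9.64e-06; 2.69 with vehicle). Ces1g, a carboxylesterase, measured 0.190 to 3.22 CPM (median 2.10) in HFD and 2.83 to 41.7 CPM (median 11.9) in LFD (log2 -3.07, SE 0.49, adjusted p = 2.98e-05; -3.60 with vehicle). The lowest HFD library of Ugt2b37 lay within the LFD range, and for Ces1g only the highest HFD and the lowest LFD library crossed. Close family copies leave both counts uncertain.

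Of 32 organic ion and drug transporters 4 were higher and 5 lower. Slc22a29, of the organic anion transporter family, measured 1.52 to 3.56 CPM (median 2.16) in HFD and 4.94 to 12.5 CPM (median 7.99) in LFD, without overlap (-1.80, SE 0.18, adjusted p = 1.7e-09). Slco1a1, an organic anion transporter of the apical membrane, measured 170.2 to 422 CPM (median 302) in HFD and 16.8 to 288 CPM (median 52) in LFD (log2 1.81, SE 0.35, adjusted p = 0.000474; 2.15 with vehicle). A single LFD library reached the HFD range. Slc22a2, the basolateral cation transporter OCT2, was higher by 0.63 (adjusted p = 0.000143), and Slc22a8, the organic anion transporter OAT3, lower (-0.46, adjusted p = 0.00362; adjusted p = 0.0502 in the PERC libraries alone). Amino acid transporters split 3 higher and 6 lower of 29. The first of these by p was Slc7a7, a basolateral exchanger of cationic amino acids, at 88 to 156 CPM (median 130.5) in HFD and 139.5 to 309 CPM (median 212) in LFD. It was lower in HFD by a log2 difference of -0.85 (SE 0.11, adjusted p = 8.97e-07), and of -0.76 with vehicle.

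**Figure D4:**
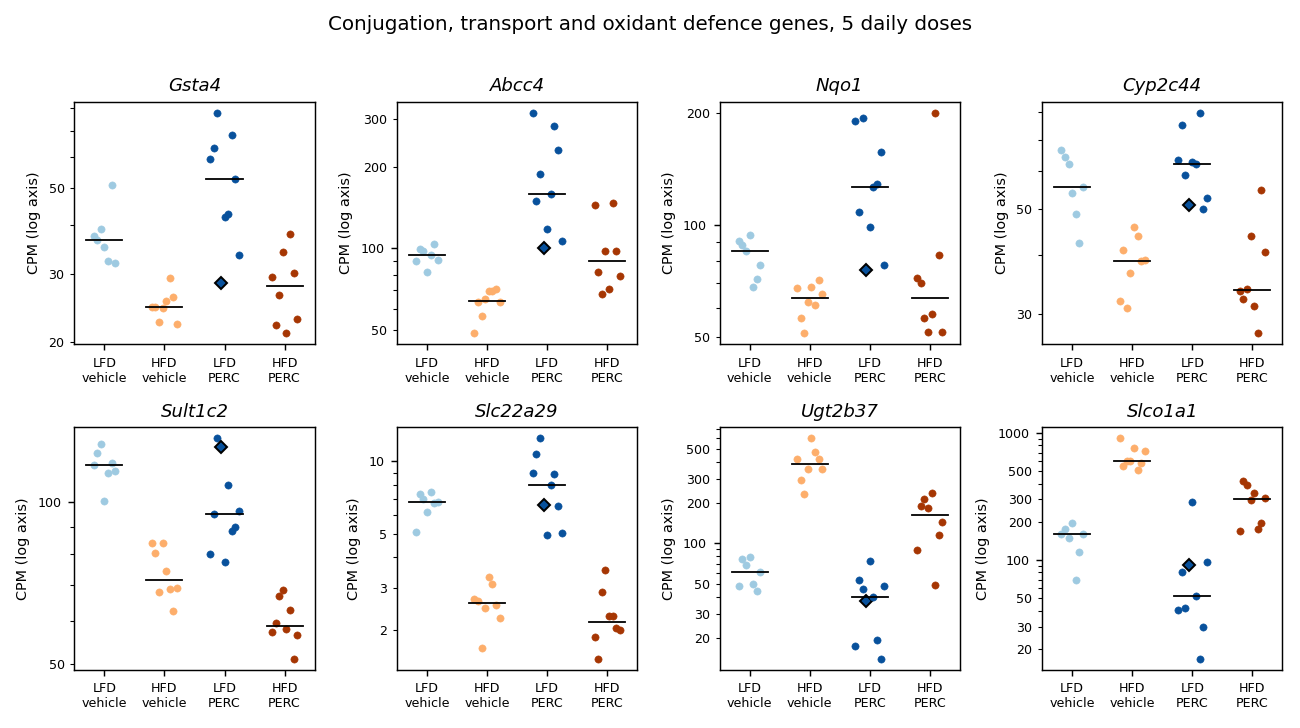
CPM (log axis) of 8 genes of defence, conjugation and transport, by group, with 1 point per library, a line at each median and a diamond for LFD PERC replicate 4. Sult1c2 and Slc22a29 are lower in every HFD PERC library than in any LFD PERC library, and Ugt2b37 and Slco1a1 have higher medians on HFD with vehicle as with PERC.

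Clock genes formed a group in which both directions had called members. The circadian clock is a loop in which ARNTL (BMAL1) with CLOCK or NPAS2 binds E-boxes and drives the PER and CRY repressors, the D-box factor DBP and the REV-ERB proteins (NR1D1 and NR1D2), which in turn repress Arntl and Nfil3 at ROR elements. Of 19 clock genes tested, 6 were higher in HFD, among them Arntl, Nfil3, Npas2, Cry1 and Clock, and 6 lower (Bhlhe41, Dbp, Nr1d1, Ciart, Per3 and Nr1d2). In the PERC libraries alone 3 were higher and 3 lower, without LFD PERC replicate 4 there were 5 higher and 7 lower, and with vehicle 0 were higher and 2 lower. Npas2, Cry1, Clock, Nr1d1, Ciart, Per3 and Nr1d2 are named here after their values were seen.

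The promoter letters show which of these genes carry the elements of that loop. RefSeq windows (GRCm38.p6) from 250 bases before to 50 after each gene start were searched on both strands for the E-box CACGTG, the D-box TTATGTAA and the ROR element core TAGGTCA, held by 7.15%, 0.938% and 2.61% of 32851 windows. The stretches around the matches are printed on the gene's strand, 5′ to 3′, with the element in capitals, for 2 genes that were higher and 3 that were lower in HFD.
Arntl: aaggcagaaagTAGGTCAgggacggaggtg
Nfil3: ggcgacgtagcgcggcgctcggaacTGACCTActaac
Bhlhe41: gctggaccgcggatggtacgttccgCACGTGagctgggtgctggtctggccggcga
Ciart: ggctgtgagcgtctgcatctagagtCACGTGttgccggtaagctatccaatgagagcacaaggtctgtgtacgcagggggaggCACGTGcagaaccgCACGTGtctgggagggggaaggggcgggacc
Per3: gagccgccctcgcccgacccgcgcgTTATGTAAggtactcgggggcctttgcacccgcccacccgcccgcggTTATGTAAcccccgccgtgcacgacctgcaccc
The Arntl stretch is chr7:113207530-113207559 on the plus strand. The others lie on the minus strand, Nfil3 at chr13:52981040-52981076, where the element reads on the reverse strand, Bhlhe41 at chr6:145865543-145865598, Ciart at chr3:95882242-95882369 and Per3 at chr4:151044791-151044895. Arntl and Nfil3, with the ROR element core, were higher in HFD, and Bhlhe41 and Ciart, with E-boxes, were lower. The E-box was not particular to the lower genes, since the window of Cry1, which was higher, holds it, as do those of Per1 and Tef, which were not called. These matches describe letters and do not show binding.

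Arntl measured 10.005 to 23.1 CPM (median 14.3) in HFD and 2.54 to 9.30 CPM (median 4.71) in LFD PERC libraries. The groups did not overlap, and the highest LFD value was that of replicate 4 (log2 1.36, SE 0.25, adjusted p = 0.000242; 1.48 without it). Nfil3, a repressor that competes at D-boxes, measured 3.39 to 19.2 CPM (median 10.6) in HFD and 2.56 to 5.61 CPM (median 3.35) in LFD (log2 1.52, SE 0.30, adjusted p = 0.000697). Dbp measured 4.50 to 19.9 CPM (median 12.9) in HFD and 18.8 to 47.2 CPM (median 31.6) in LFD. The highest HFD library crossed the lowest LFD library, and the rest were apart (log2 -1.25, SE 0.22, adjusted p = 0.000216). Bhlhe41, a repressor of the loop, measured 2.39 to 5.16 CPM (median 3.496) in HFD and 4.92 to 9.0 CPM (median 6.33) in LFD (log2 -0.87, SE 0.13, adjusted p = 1.26e-05). It differed to a like extent with vehicle (-0.77, adjusted p = 0.000162), as did Nr1d1 (-0.76 and -0.73), whereas the vehicle differences of Arntl (0.44), Nfil3 (0.85) and Dbp (-0.39) were not called. The difference between arms had adjusted p of 0.827 for Arntl, 0.92 for Nfil3 and 0.764 for Dbp. Overlapping gene models leave the counts of Arntl, Bhlhe41 and Dbp uncertain.

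After 1 PERC dose, with kidneys taken 24 h later, the diet differences of Arntl, Npas2, Dbp and Per3 were called with the opposite sign. That comparison, of 5 HFD with 4 LFD libraries, was fitted apart because the regimens share no lane. Arntl was at -1.12 (SE 0.20, adjusted p = 0.00166) and Npas2 at -1.66 (adjusted p = 0.00185), where the repeated regimen gave 1.36 and 1.06. Dbp was at 1.91 (adjusted p = 0.0288) and Per3 at 1.06 (adjusted p = 0.0182), where it gave -1.25 and -0.46. Nfil3 and Ciart, at -1.17 and 1.18, missed the threshold (adjusted p of 0.0503 and 0.0527). Bhlhe41 (0.26), Nr1d1 (0.20), Cry1 (-0.41) and Clock (-0.066) also had the opposite sign but were not called (adjusted p of 0.444 to 0.93). The clock hour of death is not in the labels, and neither its part nor that of the dose number in this change of sign was tested.

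**Figure D5:**
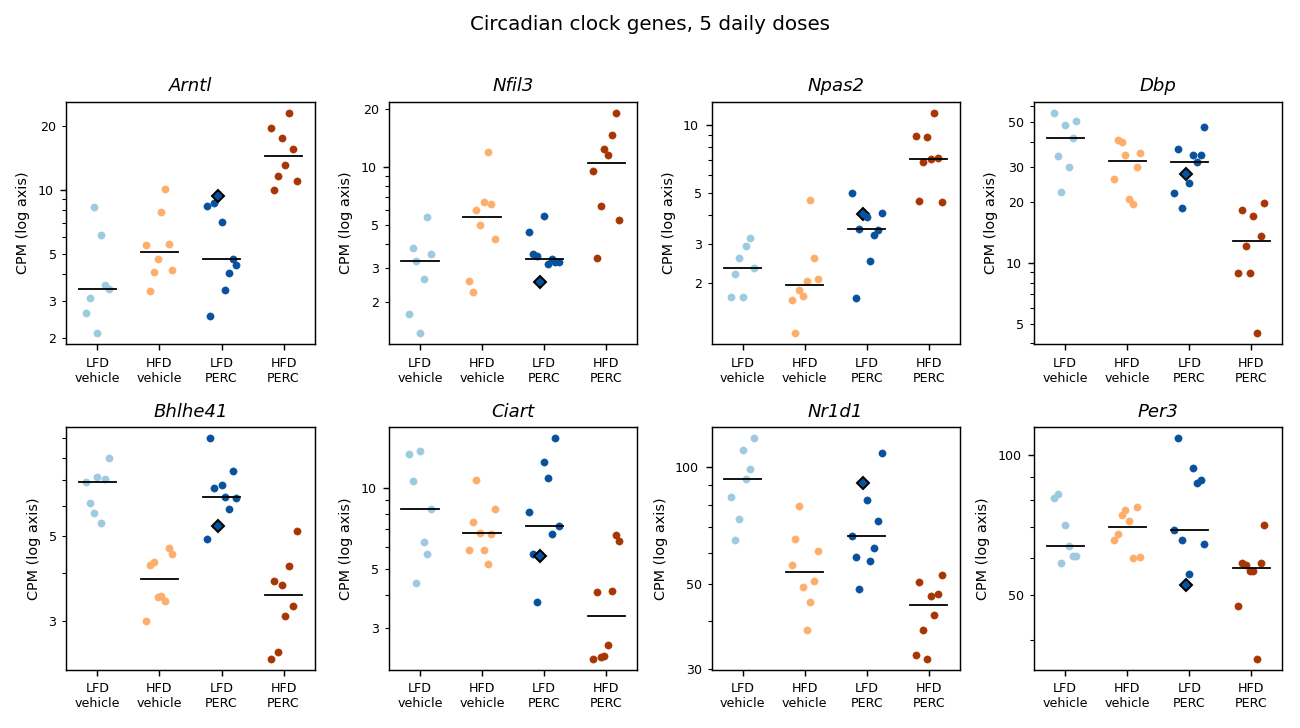
CPM (log axis) of 8 clock genes by group in the repeated regimen, with 1 point per library, a line at each median and a diamond for LFD PERC replicate 4. Arntl, Nfil3 and Npas2 have higher and Dbp, Bhlhe41, Ciart, Nr1d1 and Per3 lower medians in HFD PERC than in LFD PERC libraries.

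Of 18 tested genes of the hypoxia response, 5 were higher in HFD and 1 lower (median 0.10), with 2 higher and 1 lower in the PERC libraries alone and 1 higher with vehicle. Besides Egln3, Ndrg1, a stress-induced protein, measured 3034 to 5159 CPM (median 4091) in HFD and 2106 to 3537 CPM (median 2786) in LFD (log2 0.61, SE 0.13, adjusted p = 0.00199). Its vehicle difference was 0.063 (adjusted p = 0.837), and after 1 dose it was -0.61 (adjusted p = 0.0101). The exception was Car9, a carbonic anhydrase that HIF-1 induces, at 4.99 to 12.5 CPM (median 7.66) in HFD and 10.1 to 19.6 CPM (median 16.1) in LFD (log2 -0.93, SE 0.17, adjusted p = 0.000177). The list did not move in 1 direction. A neighbouring gene model overlaps Car9.

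Called markers of intercalated cells, the acid-base cells of the collecting duct, were all lower in HFD. Of 13 tested, 0 were higher and 5 lower (median -0.25), with 3 lower in the PERC libraries alone, 3 without HFD PERC replicate 1 and 8 with vehicle. The summed level of the list was 621 to 773 CPM (median 712) in HFD and 744 to 934 CPM (median 875) in LFD libraries. Slc26a4, the chloride-bicarbonate exchanger pendrin, measured 63.5 to 94.7 CPM (median 79.3) in HFD and 89.9 to 132 CPM (median 112) in LFD, overlapping at 1 edge (log2 -0.52, SE 0.086, adjusted p = 4.33e-05). Called falls were not particular to this list, and over all genes tested 3.07% were lower. Of 14 S1 and S2 proximal tubule markers 1 was higher and 5 lower, while of 13 S3 markers 3 were higher and 0 lower. Smooth muscle markers gave 0 higher and 2 lower of 8, and 0 to 2 lower with 1 library left out. In RNA from whole kidney, fewer cells of a type and less RNA per cell cannot be told apart.

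A few immune genes were higher in HFD. Over all genes tested, 3.02% were higher after PERC, 0.885% in the PERC libraries alone and 3.86% with vehicle. Of 37 interferon response genes, 4 were higher and 0 lower (median 0.19), with 3 higher in the PERC libraries alone and 6 with vehicle. The count after PERC was 7 without LFD replicate 3, LFD replicate 9 or HFD replicate 6. Oas2, an antiviral oligoadenylate synthetase, measured 4.25 to 6.50 CPM (median 4.73) in HFD and 1.12 to 3.37 CPM (median 2.76) in LFD. The groups were apart (log2 0.99, SE 0.17, adjusted p = 0.000111; 0.85 with vehicle), although related Oas genes may share its reads. Macrophage and dendritic cell markers were higher for 4 of 17 and lower for 0 (median 0.25), and for 2 without HFD replicate 7 or 8 or LFD replicate 7. No macrophage marker was called in the PERC libraries alone. The summed macrophage markers ran from 158 to 223 CPM (median 188) in HFD and from 126.4 to 201 CPM (median 146.9) in LFD. Cd14, a monocyte and macrophage receptor for lipopolysaccharide, was higher by 0.49 (adjusted p = 0.0156; adjusted p = 0.067 in the PERC libraries alone). Of 23 inflammatory and acute phase genes 4 were higher and 0 lower, among them the adhesion molecule Icam1 (0.31, adjusted p = 0.0192; 0.25 and adjusted p = 0.0623 without HFD replicate 6), and 0 were called in the PERC libraries alone. That count was 1 without HFD replicate 7 and 2 without LFD replicate 7. The macrophage markers moved with these genes, and their part in the result was not tested.

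Adipocyte markers, which can enter a kidney sample with attached fat, had overlapping sums in the PERC groups. Of 15 adipocyte markers, 1 was higher after PERC (the thermogenic Ucp1, log2 3.38, SE 0.83, adjusted p = 0.00772) against 8 with vehicle. The count was 3 higher and 0 lower without LFD replicate 2, 1 and 1 without LFD replicate 4, and 0 and 1 without HFD replicate 4. The summed markers ran from 601 to 1632 CPM in HFD and from 704 to 1423 CPM in LFD PERC libraries. The sum did not follow the single markers. Their median log2 difference was 0.48 after PERC, with 11 of 15 positive, and 1.57 with vehicle, with 13 positive. With vehicle the median sum was nonetheless 967 CPM in HFD and 1069 CPM in LFD. Adipoq, the fat-cell hormone adiponectin, measured 2.98 to 23.9 CPM in HFD and 0.597 to 22.7 CPM in LFD (log2 0.082, SE 0.47, adjusted p = 0.965). Ucp1 ran from 0.634 to 187 CPM in HFD and from 0.283 to 33.3 CPM in LFD, and was not called in the PERC libraries alone (adjusted p = 0.0946) or without HFD replicate 4 (2.51, adjusted p = 0.0548).

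Of the 2 genes for which the test of the difference between arms made a call, Sntg2 (GRCm38 chr12:30174482-30373375, minus strand), a syntrophin scaffold protein, measured 1.39 to 2.77 CPM (median 2.02) in HFD and 0.404 to 0.983 CPM (median 0.877) in LFD PERC libraries. With vehicle it measured 0.501 to 1.22 CPM (median 1.02) in HFD and 0.653 to 1.39 CPM (median 1.12) in LFD. Every HFD PERC library was thus above every library of the other 3 groups, if narrowly for the lowest. The diet difference was 1.36 (SE 0.18, adjusted p = 1.21e-06) after PERC and -0.18 (adjusted p = 0.639) with vehicle, and their difference was 1.54 (SE 0.27, adjusted p = 0.0122). Angptl4 (chr17:33773750-33781830, minus strand), a PPARα target that inhibits lipoprotein lipase, measured 121 to 293 CPM (median 150.3) in HFD and 57.2 to 160.3 CPM (median 114) in LFD PERC libraries, with overlap. With vehicle HFD was the lower diet, at 36.2 to 66.7 CPM (median 45.3) against 62.5 to 114 CPM (median 81.7). The diet difference was 0.65 (SE 0.19, adjusted p = 0.0291) after PERC and -0.87 (adjusted p = 0.00501) with vehicle, and their difference was 1.53 (SE 0.28, adjusted p = 0.0176). That difference lost its call without HFD PERC replicate 7 (1.38, adjusted p = 0.0543) and with adipocyte markers as a covariate (1.55, adjusted p = 0.0762), whereas that of Sntg2 was called under every setting run. The PERC value of Angptl4 lost its call without LFD PERC replicate 4 (0.57, adjusted p = 0.0583) or 9 (0.62, adjusted p = 0.0559), without HFD PERC replicate 6 (0.56, adjusted p = 0.0677) or 7 (0.51, adjusted p = 0.113), and in the PERC libraries alone (adjusted p = 0.0967).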

How the data were processed

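Each library has a deposited file of raw read counts by gene symbol, which the authors did not normalize. Total RNA of pulverized kidney went into stranded mRNA libraries, per the labels' protocols. The submitters' processing notes name TopHat2 2.0.13, HTSeq, DESeq2, Trimmomatic and bcl2fastq 2.17.1.14, and the builds GRCm38 and mm10. The annotation and strand setting are not given in the sources used here; overlapping genes are therefore uncertain. Reads in no gene were dropped. They left 45.4% to 54.5% of reads in genes in the 17 libraries, and several-place reads among them make near-identical genes uncertain.

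Of 24499 genes, filterByExpr kept 14614. Counts were scaled by TMM and tested with edgeR 4.0.16 (R 4.3.3, quasi-likelihood F test, robust) over the 47 libraries and 6 groups of the repeated regimen, with Benjamini-Hochberg adjustment over all genes and calls at adjusted p under 0.05. The standard error (SE) is the log2 difference divided by the square root of F. The code was tested on simulated data. Replicate numbers follow accession order and pair nothing. None of 64 pairs within the 2 PERC groups agreed within sampling noise. The 1-dose comparison had its own fit, with libraries under 1000000 counts left out.

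Genes named were, of those called at 1 CPM or more, the 15 largest differences each way, up to 4 per list by adjusted p, the 5 of smallest interaction p, and 20 fixed genes, without predicted genes. A further rule, absent from the plan, named genes whose interaction was called with LFD PERC replicate 4 left out, among them Banp. Members, the 52 lists (32 of pathways and 20 of cell types) and tests were chosen with earlier results of these data known. Alternatives were DESeq2 1.42.0, RLE scaling, no filter, only the groups compared, lane or adipocyte markers as a covariate, within-lane values and each library left out. Promoter windows were found for 113 of the 150 genes that these rules gave.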

Additional observations from a re-analysis of the deposited data

Results flagged for a closer look

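The difference between the diet effect with PERC and that with vehicle passed the test for Sntg2 (log2 1.54) and Angptl4 (log2 1.53, not called without HFD PERC replicate 7 or with adipocyte markers as a covariate).

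In 110 groups of libraries (55 genes in the HFD PERC and LFD PERC groups), 15 had 1 extreme library whose gap to the next value was too large a share of the group's range. Chance flags about 1 in 20 groups, or 5.5 of these, and genes of 1 library are not independent.

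HFD PERC replicate 6 was the library concerned for 5 genes. Its Lcn2 (35.2 CPM, next 7.23), Nqo1 (200.9 CPM, next 83.4) and Gstt3 (86.9 CPM, next 68.3) were the highest of its group, and its Slc22a2 (235.3 CPM, next 439) and Ces1g (0.190 CPM, next 1.75) the lowest.

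LFD PERC replicate 4 was the library concerned for 3 genes. Its Gc (55.3 CPM, next 345) and Egln3 (16.3 CPM, next 23.04) were the lowest of its group, and its Banp (17.4 CPM, next 7.63) the highest. Banp was named by a fit without this library, so its flag is not independent evidence.

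The other extremes were spread over libraries. In HFD PERC libraries, Ucp2 (404 CPM) and Kyat3 (82.8 CPM) were highest in replicate 7 and Adipoq (23.9 CPM) in replicate 4. In LFD PERC libraries, Ctxn3 (1.59 CPM) was highest in replicate 5 and Ucp1 (33.3 CPM) in replicate 2, and Car9 (10.1 CPM) was lowest in replicate 3 and Sntg2 (0.404 CPM) in replicate 8. No cause was tested for any of these.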

How the results depend on the processing

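The count of genes called between HFD and LFD after PERC, 891, was 800 to 1107 under DESeq2, RLE scaling, no filter and the lane and adipocyte covariates, and 736 to 1064 with each PERC library left out, with 529 genes called in every such fit. It fell to 272 in the PERC libraries alone, and to 301 in those without LFD PERC replicate 4, an alternative chosen after seeing the data; those fits have fewer libraries, fewer genes and a larger spread, whose parts were not separated. The vehicle count of 970 was 351 with adipocyte markers as a covariate, 1703 in the vehicle libraries alone and 688 to 1013 with 1 library left out. The count of 2 for the difference between arms was 1 with the adipocyte covariate, 6 with DESeq2 and 1 to 5 with 1 library left out; it was 4 without LFD PERC replicate 1, 4 without LFD PERC replicate 4, 4 without HFD PERC replicate 3, 5 without LFD PERC replicate 3 and 1 without HFD PERC replicate 7. Of the 46 named and called genes described, 42 stayed called with each library left out and 37 under every setting. Differences that changed sign were never called: Stra6l without LFD PERC replicate 3 (0.015), Adipoq with the adipocyte covariate (-0.33), without HFD PERC replicate 4 (-0.42) and without LFD PERC replicate 4 (-0.092; -0.093 in the PERC libraries alone), and Slc22a7 without LFD PERC replicate 4 (0.068; 0.087 in the PERC libraries alone). With each library left out they ranged from -0.12 to 0.015, from -0.42 to 0.47 and from -1.23 to 0.068. Where no construction is named, the cause was not tested. No paired analysis was possible because the labels carry no replicate numbers. Depth limits genes near 1 CPM, such as Krt20, Gsta1 and Sntg2, where a library holds few counts.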
